A study of Mus musculus with 8 samples.

Results

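P cells are HC11 mammary epithelial cells (MEC) that were primed for 48 h in 5% fetal bovine serum (FBS) with 5 µg/ml insulin and 1 µg/ml hydrocortisone, a glucocorticoid (GC), after EGF had been withdrawn. N cells are normal HC11 MEC grown until confluent with EGF at 20 ng/ml, insulin at 5 µg/ml and 10% FBS. HC11 is a clonal line derived from COMMA-1D cells of Balb/c mouse mammary gland, so that both groups come from a single clone. The comparison of P with N asked what priming did to gene expression before any prolactin (PRL) was added. Genes were taken where at least 2 of the 4 P and N libraries reached 1 FPKM (fragments per kilobase of exon, scaled to library size), which selected 11653 of the 24062 genes in the table. Of these, 10668 reached 1 FPKM in all 4 libraries, 416 in both P libraries and in neither N library, and 261 in both N libraries and in neither P library. The 416 and 261 genes were taken through 1 group alone, and the counts for gene lists below depend in part on this. RNA was freed of ribosomal RNA, selected for poly(A) and sequenced from both ends, with 2 libraries a group. The series also holds 2 libraries of embryonic stem cells (ESC) and 2 of PRL cells. PRL cells are primed HC11 cells that received 5 µg/ml PRL for a further 72 h, with hydrocortisone, insulin and FBS as in P. These 4 libraries entered the fit for its estimate of spread. Serum, EGF, GC and the time in culture all differ between P and N at once, and what each of them contributed cannot be told apart.

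In a mammary epithelium, EGF acts through ERBB receptors and the RAS, MEK and ERK kinases, which keep cells dividing and hold back differentiation. GC crosses the membrane and binds the glucocorticoid receptor, a transcription factor that induces genes such as Tsc22d3 and Fkbp5 in most tissues. HC11 cells that have been grown to confluence with EGF and are then given GC and insulin become able to respond to PRL, which induces the caseins through STAT5.

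The FPKM rested on 24001576 and 24602344 fragments in P, against 23329830 and 22903215 fragments in N, and 3 fragments in a 1 kb transcript correspond to between 0.122 and 0.131 FPKM in these libraries. Across the 11653 genes, log2(FPKM + 1) correlated at r = 0.997 between the P libraries and at r = 0.993 between the N libraries, and at r = 0.906 to 0.912 between P and N (Pearson, across genes, which are not independent replicates). The 8 defining epithelial markers were all present. Epcam had 309.6 and 311 FPKM in P, against 244 and 233 FPKM in N. Krt18 had 129 and 132 FPKM in P, against 77.2 and 73.3 FPKM in N. The 8 markers together summed to less in P, with 1646 and 1693 FPKM, against 4277 and 4210 FPKM in N. Among them Krt5 and Krt14 were called down and Elf5 was called up. The markers of endothelium summed to 3.21 and 3.03 FPKM in P, against 5.16 and 5.32 FPKM in N, with Emcn at 0 in all 4 libraries, and those of immune cells to 5.86 and 4.67 FPKM in P, against 4.24 and 5.63 FPKM in N, with Ptprc and Tyrobp at 0. The 14 fibroblast markers summed to 1274 and 1174 FPKM in P, against 507 and 522 FPKM in N. Most of that sum was Postn, the matrix protein periostin, and the fibroblast markers did not move together, as Postn, Col3a1, Lum and Dcn rose while Col1a1, Col5a1 and S100a4 fell. Without 1 of the P or N libraries, Col3a1, Col1a1 and Col5a1 had adjusted p of 0.116 to 0.180 (with the 6 HC11 libraries 5.12e-05 for Col3a1, 2.17e-06 for Col1a1 and 9.2e-05 for Col5a1), and S100a4 had adjusted p of up to 0.155 (1.53e-05 with the 6 HC11 libraries). No source says whether the replicates came from separate cultures, and a p-value here reflects the spread between single libraries, which may be technical. The ESC libraries, which the fit takes into its estimate of spread, differed from each other in these genes (Col1a1 had 114 and 13.3 FPKM in them), and for the genes named here that lost their call without any 1 of the 4 libraries the adjusted p from the 6 HC11 libraries alone is also given.

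Priming changed the expression of 1526 genes (13.1%). For a call, limma had to give an adjusted p under 0.05 and a log2 fold change of 1 or more in size, where the log2 fold change is the mean log2(FPKM + 1) of P minus that of N and understates ratios of genes near or below 1 FPKM. By this rule 835 genes rose (7.17% of the 11653) and 691 fell (5.93%). Over all 13210 genes in the fit 6.35% rose and 5.23% fell (11.6% in either direction). By 2 or more in log2, 168 genes rose and 184 fell. The largest changes were unevenly spread. By 3 or more 53 genes rose and 26 fell, and by 4 or more 20 rose and none fell. The P and N libraries did not overlap in any called gene, but this was so in 85.5% of all 11653 genes and by itself says little. In 63.3% of genes the log2 fold change was under 0.5 in size, and the median gene stood at 0.04.

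**Figure D1:**
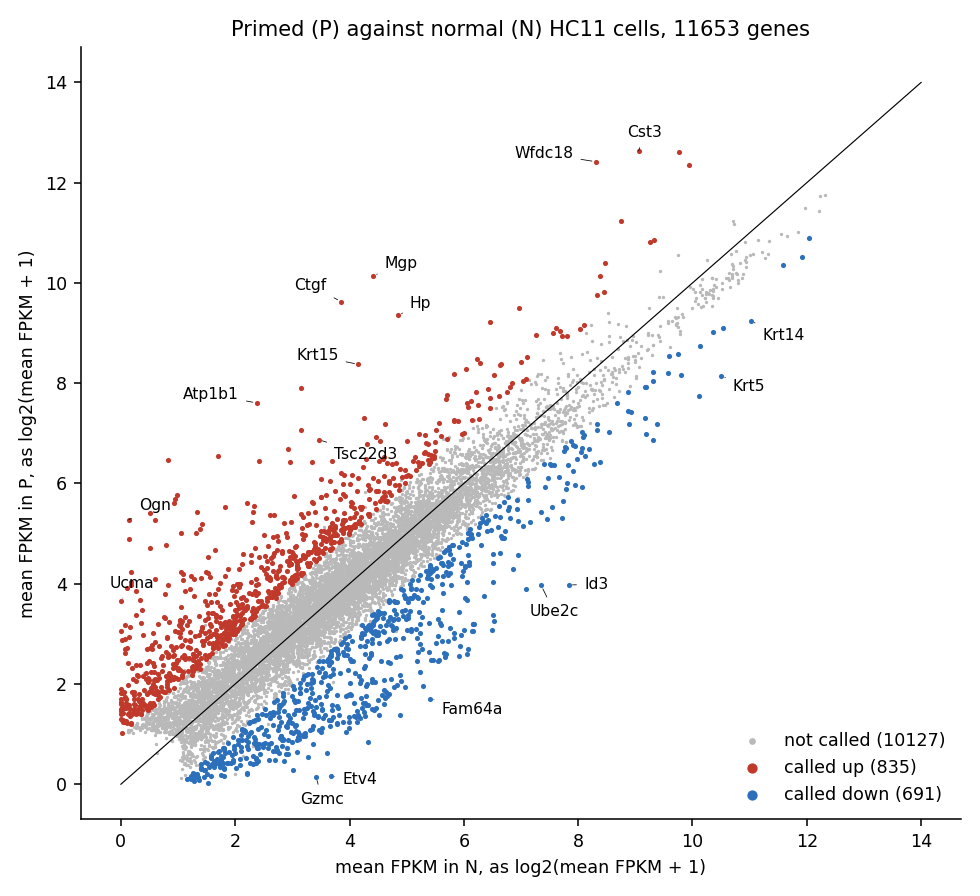
Each point is 1 of the 11653 genes, placed by its mean level in N (x axis) and in P (y axis), both as log2(mean FPKM + 1), with genes called up in red, genes called down in blue and the others in grey. The line marks equal levels, and Mgp, Ctgf and Atp1b1 lie far above it, while Id3, Ube2c and Fam64a lie far below it.

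The genes that rose took a larger share of the libraries in P. They held 14.6% and 14.3% of the summed FPKM of the P libraries, against 3.08% and 3.12% in N, and genes called down held 4.04% and 4.10% in P, against 10.96% and 10.87% in N. The 10 genes with the largest gain in FPKM alone held 7.14% and 7.01% in P, against 1.02% and 0.992% in N. These are Cst3, Spp1, Wfdc18, Ctsd, Mgp, Sparc, Igfbp5, Mir140, Cbr2 and Postn. Apart from Cbr2, a carbonyl reductase, and the microRNA gene Mir140, they encode proteins that are secreted or reside in lysosomes. The gain of Cst3, which encodes the protease inhibitor cystatin C, was the highest, with 6384 and 6367 FPKM in P, against 533 and 531 FPKM in N. Cbr2 had 1328 and 1379 FPKM in P, against 350.4 and 355 FPKM in N. The 10 largest losses went to abundant genes of growth and structure, of which Rps2, Rpl41, Ptma, Krt14 and Krt5 were called down and Eef1a1, Ppia, Rplp1, Actg1 and Pkm were not.

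**Figure D2:**
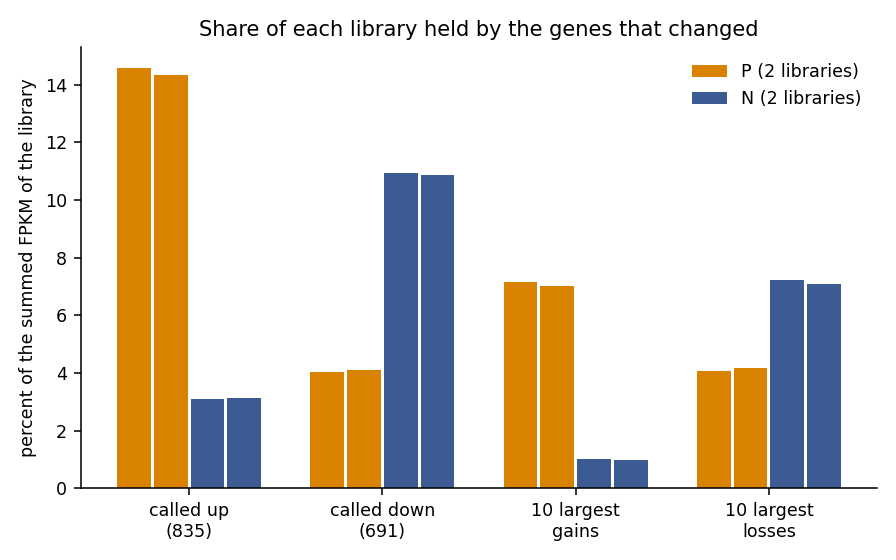
The bars give the percent of each library's summed FPKM held by the genes called up, the genes called down and the 10 genes with the largest gain or loss of mean FPKM, with the 2 P libraries left and the 2 N libraries right in each set. The genes called up fill more than 14% of both P libraries and about 3% of both N libraries.

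Targets of GC were among the genes that rose. Of 26 measured genes listed as targets of the glucocorticoid receptor, 15 rose (57.7%, beside 7.17% of all genes) and 0 fell. The median log2 fold change was 1.44. This list, like the others, was chosen with earlier results of these data known, so that its share is not an independent test. At an unadjusted limma p under 0.05 and any fold, 18 were higher and 3 lower, and leaving out any 1 of the 4 libraries gave 15 or 16 that rose. Tsc22d3, which encodes the anti-inflammatory GC-induced leucine zipper and lies on chromosome X from 140539528 to 140600522, had 115 and 117 FPKM in P, against 8.36 and 11.7 FPKM in N (log2 fold change 3.43, SE 0.20, adjusted p = 4.26e-05). Fkbp5, a co-chaperone that restrains the receptor in a feedback loop, had 86 and 84.9 FPKM in P, against 9.95 and 8.41 FPKM in N (log2 fold change 3.09, SE 0.10, adjusted p = 6.07e-06). Klf15, a zinc finger factor of metabolism, was close to silent in N, with 8.23 and 7.39 FPKM in P, against 0.0934 and 0.133 FPKM in N. The largest log2 fold change of the list was that of Tfcp2l1, a transcription factor of epithelia (as ratios of means Sult1a1 and Klf15 rose by more), with 93.1 and 92.5 FPKM in P, against 1.96 and 2.55 FPKM in N (log2 fold change 4.86, SE 0.11, adjusted p = 1.76e-06). Lcn2, which encodes the siderophore-binding protein lipocalin 2, had 569.5 and 616 FPKM in P, against 91.2 and 83 FPKM in N, and Sult1a1, a sulfotransferase, had 6.08 and 6.59 FPKM in P, against 0 and 0.0319 FPKM in N. Each of these 6 genes stood higher in both P libraries than in both N libraries, and none lost its call when 1 library was left out. Not all genes of the list rose. Mt1, a metallothionein, had 863 and 878 FPKM in P, against 1148 and 1147 FPKM in N (log2 fold change −0.40). Its adjusted p was 0.381 with all 8 libraries and 0.00461 with the 6 HC11 libraries. Ddit4, an inhibitor of mTORC1 signalling, had 143 and 137 FPKM in P, against 279 and 252 FPKM in N (log2 fold change −0.91). Sgk1, a kinase that regulates ion channels, had 46.9 and 49 FPKM in P, against 69.4 and 73.8 FPKM in N (log2 fold change −0.57), again lower in P and below the size needed for a call.

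The receptor binds a palindrome whose core reads ACANNNTGT, and AGAACA is its strong arm. In the RefSeq promoters of GRCm38.p6, which run from 250 bases before to 50 after the start, the core was found on either strand in 7 of 37 promoters of the target list (18.9%; 24 of 26 genes matched), in 38 of 798 promoters of genes called up (4.76%; 594 of 835 matched) and in 31 of 646 of genes called down (4.799%; 541 of 691 matched). The share was 3.72% among genes not called and 6.85% among all 32851 promoters of the table. AGAACA was present in 24.3% of the promoters of the list, 14.4% of those of genes called up, 11.6% of those of genes called down, 11.7% of those of genes not called and 19.0% of all. The 2 called targets with the largest rise whose promoter holds the core were Lcn2 and Glul, glutamine synthetase, shown here on the strand of the gene with the core in capitals. Lcn2 lies on chromosome 2, with this window at chr2:32387690-32387989 on the minus strand, and the window of Glul is at chr1:153899679-153899978 on the plus strand.
Lcn2: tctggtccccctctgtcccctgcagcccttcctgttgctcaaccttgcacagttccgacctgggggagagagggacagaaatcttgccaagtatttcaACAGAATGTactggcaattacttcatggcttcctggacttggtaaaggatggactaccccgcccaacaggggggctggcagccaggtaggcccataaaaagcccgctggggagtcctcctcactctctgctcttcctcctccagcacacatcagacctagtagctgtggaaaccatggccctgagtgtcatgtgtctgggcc
Glul: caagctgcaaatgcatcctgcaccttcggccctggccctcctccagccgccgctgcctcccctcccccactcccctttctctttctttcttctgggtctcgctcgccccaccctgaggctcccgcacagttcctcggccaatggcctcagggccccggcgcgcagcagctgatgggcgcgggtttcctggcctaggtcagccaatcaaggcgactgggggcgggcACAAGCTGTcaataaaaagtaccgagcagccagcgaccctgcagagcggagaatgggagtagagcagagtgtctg
Glul had 5.4 and 6.1 FPKM in P, against 0.534 and 0.638 FPKM in N (log2 fold change 2.09, SE 0.08, adjusted p = 1.26e-05). These are matches of letters within a short window, and binding of the receptor was not measured.

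Genes that respond to EGF through ERK moved the other way. Of 27 measured genes of this list, 11 fell (40.7%, beside 5.93% of all genes) and 1 rose, with a median of −0.87, and 9 to 12 fell when 1 of the 4 libraries was left out. Etv4, Etv5 and their relatives are ETS factors induced by ERK, and the DUSP phosphatases and SPRED proteins switch the pathway off again. Etv4, on chromosome 11 from 101769747 to 101785310, had 0.178 and 0.0522 FPKM in P, against 12 and 11.5 FPKM in N (log2 fold change −3.52, SE 0.10, adjusted p = 4.07e-06). In P these values rest on 10 and 3 fragments, against 654 and 616 in N. Dusp6, a phosphatase of ERK itself, had 7.22 and 7.66 FPKM in P, against 58.5 and 67.1 FPKM in N (log2 fold change −2.92, SE 0.10, adjusted p = 7e-06). Etv5 had 1.53 and 1.84 FPKM in P, against 8.48 and 8.26 FPKM in N, Dusp4 had 1.2 and 1.46 FPKM in P, against 6.83 and 7.16 FPKM in N, and Spred2 had 2.52 and 2.52 FPKM in P, against 9.33 and 8.97 FPKM in N. Egr2, an immediate early zinc finger factor, had 1.01 and 1.51 FPKM in P, against 6.55 and 8.26 FPKM in N. All of these fell and kept their call without any 1 of the 4 libraries. Myc, the growth-promoting transcription factor, also fell, with 11.4 and 12 FPKM in P, against 26.4 and 26.4 FPKM in N (log2 fold change −1.11, SE 0.14, adjusted p = 0.00101). The exception was Phlda1, which rose, with 207 and 208 FPKM in P, against 80.9 and 93 FPKM in N. Several abundant immediate early genes of the list were not called. Ier2 had 99.8 and 127 FPKM in P, against 206 and 231 FPKM in N (log2 fold change −0.95). Ier3 had 99 and 103 FPKM in P, against 194 and 176 FPKM in N (log2 fold change −0.87). Its adjusted p was 0.127 with all 8 libraries and 6.3e-05 with the 6 HC11 libraries. Junb had 161 and 201 FPKM in P, against 255 and 325 FPKM in N.

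Ligands and receptors of the EGF family were low in both groups or changed little. Amphiregulin (Areg), a ligand that is itself induced by ERK, fell to 0.278 and 0.509 FPKM in P, against 5.51 and 5.39 FPKM in N (log2 fold change −2.22, SE 0.17, adjusted p = 0.000114). Epigen (Epgn) fell to 0.293 and 0.406 FPKM in P, against 2.44 and 2.49 FPKM in N. These were the 2 genes called among 7 measured (28.6%, beside 5.93% of all genes that fell). Tgfa had 10.7 and 10.8 FPKM in P, against 14.1 and 12.7 FPKM in N. The receptor gene Erbb2 had 33 and 33.7 FPKM in P, against 28.3 and 28.1 FPKM in N (log2 fold change 0.23). Its adjusted p was 0.223 with all 8 libraries and 0.00609 with the 6 HC11 libraries. Egfr, the receptor of EGF, had 4.77 and 4.68 FPKM in P, against 4.29 and 4.12 FPKM in N (log2 fold change 0.14, adjusted p = 0.319), with both P libraries above both N libraries by less than 1 FPKM.

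Cell cycle genes showed the most uniform change. Of 64 measured genes of mitosis 63 fell (98.4%, beside 5.93% of all genes) and 0 rose, with a median of −2.82. Of 53 genes of DNA replication and S phase 45 fell (84.9%) and 0 rose, with a median of −1.77. In each list every measured gene was lower in P. Ccnb1, the cyclin that drives entry into mitosis, had 4.66 and 5.49 FPKM in P, against 67.1 and 63.3 FPKM in N (log2 fold change −3.45, SE 0.20, adjusted p = 4.41e-05). Plk1, a kinase of mitotic entry and spindle assembly, had 5.5 and 5.48 FPKM in P, against 66.8 and 65.8 FPKM in N. Aurka, which matures centrosomes, had 4.89 and 4.88 FPKM in P, against 59.8 and 59.5 FPKM in N (log2 fold change −3.37, SE 0.17, adjusted p = 2.52e-05). Ube2c, an E2 enzyme of the anaphase-promoting complex, had 14.3 and 15 FPKM in P, against 165 and 159.9 FPKM in N. Cenpa, the histone variant of centromeres, had 7.76 and 7.11 FPKM in P, against 80.7 and 97.2 FPKM in N. The largest fall of the list was that of Fam64a, a gene of mitotic cells, with 2.42 and 2.11 FPKM in P, against 42.2 and 40.7 FPKM in N (log2 fold change −3.70, SE 0.09, adjusted p = 1.81e-06). The means of P and N lie more than 10-fold apart in each of these 6 genes. Bub3, a protein of the spindle checkpoint, was the gene of the mitosis list that missed a call, by its fold change, with 40.3 and 38.6 FPKM in P, against 78.9 and 78.5 FPKM in N (log2 fold change −0.98, adjusted p = 0.000588). Transcripts of mitosis were still detected in P, as Ccna2, a cyclin that works from S phase on, had 13.4 and 14.2 FPKM in P, against 139 and 131 FPKM in N, and Top2a, the topoisomerase of dividing cells, had 9.17 and 9.67 FPKM in P, against 87.9 and 92.1 FPKM in N.

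Genes of replication fell by less in the median. Mcm5, a subunit of the replicative helicase, had 7.49 and 8.77 FPKM in P, against 74.6 and 67.5 FPKM in N (log2 fold change −2.98, SE 0.11, adjusted p = 1.04e-05). Rrm2, the small subunit of ribonucleotide reductase, had 7.91 and 8.39 FPKM in P, against 69.1 and 71.5 FPKM in N. 2810417H13Rik, the PCNA-associated factor Pclaf, had 4.75 and 5.42 FPKM in P, against 49.4 and 51.7 FPKM in N. Ccne1, the cyclin that starts S phase, had 1.38 and 1.68 FPKM in P, against 16.9 and 15.8 FPKM in N. Pcna, the sliding clamp of the polymerases, remained at a higher level than these, with 74.4 and 76.4 FPKM in P, against 245 and 232 FPKM in N (log2 fold change −1.65). The 8 genes not called were also lower in P, and the most abundant of them, Rfc2, a subunit of the clamp loader, had 32.2 and 33.3 FPKM in P, against 66.1 and 66.7 FPKM in N (log2 fold change −0.997). Gins4, a subunit of the helicase complex, had 22.5 and 23.2 FPKM in P, against 45.7 and 44.1 FPKM in N. Among regulators of the cycle, Foxm1, the transcription factor of mitotic genes, had 2.2 and 2.23 FPKM in P, against 22.7 and 20.4 FPKM in N, and E2f8 had 1.06 and 1.08 FPKM in P, against 7.94 and 7.09 FPKM in N. Some cyclin and kinase genes of G1 were not called. Ccnd1 had 21.6 and 24.4 FPKM in P, against 36.2 and 38.6 FPKM in N (log2 fold change −0.68). Its adjusted p was 0.24 with all 8 libraries and 0.00031 with the 6 HC11 libraries. Ccnd3 had 54.5 and 54.5 FPKM in P, against 58.7 and 51.5 FPKM in N. Cdk2, the kinase of cyclins E and A, had 17.6 and 18.3 FPKM in P, against 25.5 and 24.4 FPKM in N. Cdk6, a kinase partner of the D cyclins, had 2.38 and 2.6 FPKM in P, against 5.73 and 5.32 FPKM in N (log2 fold change −0.90, adjusted p = 0.000317), short of a call by its fold change, and was called down with a pseudocount of 0.1 (log2 fold change −1.12) or 0.5 (−1.01). Cdkn1a, the inhibitor p21, had 54.9 and 54.2 FPKM in P, against 64.4 and 69 FPKM in N (log2 fold change −0.29).

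Promoters of mitotic genes often carry a CHR element, TTTGAA, near the start and CCAAT boxes upstream of it, and promoters of replication genes carry E2F sites. TTTGAA was found on either strand in 39 of 57 promoters of the mitosis list (68.4%; 52 of 64 genes matched), in 24.5% of promoters of genes called down, 10.5% of those of genes called up, 11.3% of those of genes not called and 17.9% of all promoters. With the mitosis and replication lists left out, it was in 21.1% of 546 promoters of genes called down. CCAAT was in 79.0% of promoters of the mitosis list and in 37.4% of all, and 59.6% held both, against 6.95% of all. At least 1 of the E2F sites TTTGGCGC, TTTCCCGC or TTTGGCGG was in 20 of 50 promoters of the replication list (40%; 42 of 53 genes matched). The first and the last of these sites share 7 of their 8 letters. An E2F site was in 8.82% of promoters of genes called down and 1.504% of those of genes called up. It was in 3.86% of those of genes not called and 2.1% of all. With the mitosis and replication lists left out, it was in 6.78% of promoters of genes called down. The promoters of the 2 genes with the largest fall in each list that hold the element are shown because the members of these lists moved together, with TTTGAA or the E2F site on either strand in capitals.
Cenpa: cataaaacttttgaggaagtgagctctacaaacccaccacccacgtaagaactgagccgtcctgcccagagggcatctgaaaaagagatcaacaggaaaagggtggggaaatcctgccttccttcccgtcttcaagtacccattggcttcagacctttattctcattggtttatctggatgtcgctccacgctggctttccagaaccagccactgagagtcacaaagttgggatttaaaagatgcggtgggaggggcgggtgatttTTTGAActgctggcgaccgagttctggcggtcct
Ube2c: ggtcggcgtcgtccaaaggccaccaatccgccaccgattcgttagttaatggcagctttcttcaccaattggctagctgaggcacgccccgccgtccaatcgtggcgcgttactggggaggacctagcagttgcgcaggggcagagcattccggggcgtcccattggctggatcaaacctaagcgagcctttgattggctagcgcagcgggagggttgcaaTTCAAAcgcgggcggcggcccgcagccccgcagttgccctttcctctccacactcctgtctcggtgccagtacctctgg
2810417H13Rik: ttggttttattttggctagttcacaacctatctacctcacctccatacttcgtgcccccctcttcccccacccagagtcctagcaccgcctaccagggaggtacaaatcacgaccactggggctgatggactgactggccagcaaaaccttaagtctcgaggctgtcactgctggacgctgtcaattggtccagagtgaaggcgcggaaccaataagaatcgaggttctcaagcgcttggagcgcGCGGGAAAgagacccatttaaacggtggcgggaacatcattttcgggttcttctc
Mcm5: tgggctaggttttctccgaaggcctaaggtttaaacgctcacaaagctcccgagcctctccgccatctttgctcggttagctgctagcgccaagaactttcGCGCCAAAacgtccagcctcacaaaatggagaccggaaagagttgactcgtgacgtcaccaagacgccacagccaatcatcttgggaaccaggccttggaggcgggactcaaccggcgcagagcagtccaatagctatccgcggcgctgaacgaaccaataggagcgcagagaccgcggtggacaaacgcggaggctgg
The window of Cenpa is at chr5:30666636-30666935, that of Ube2c at chr2:164769679-164769978, that of 2810417H13Rik at chr9:65890073-65890372 and that of Mcm5 at chr8:75109259-75109558, all on the plus strand of GRCm38.p6. In Ube2c, TTTGAA is read on the opposite strand as TTCAAA, 29 bases before the start, and in Cenpa it begins at base 17 of the transcript. The E2F site of 2810417H13Rik begins 5 bases before the start, and that of Mcm5 149 bases before it. Both E2F sites are read on the opposite strand in these windows. Occupancy of these sites was not measured.

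**Figure D3:**
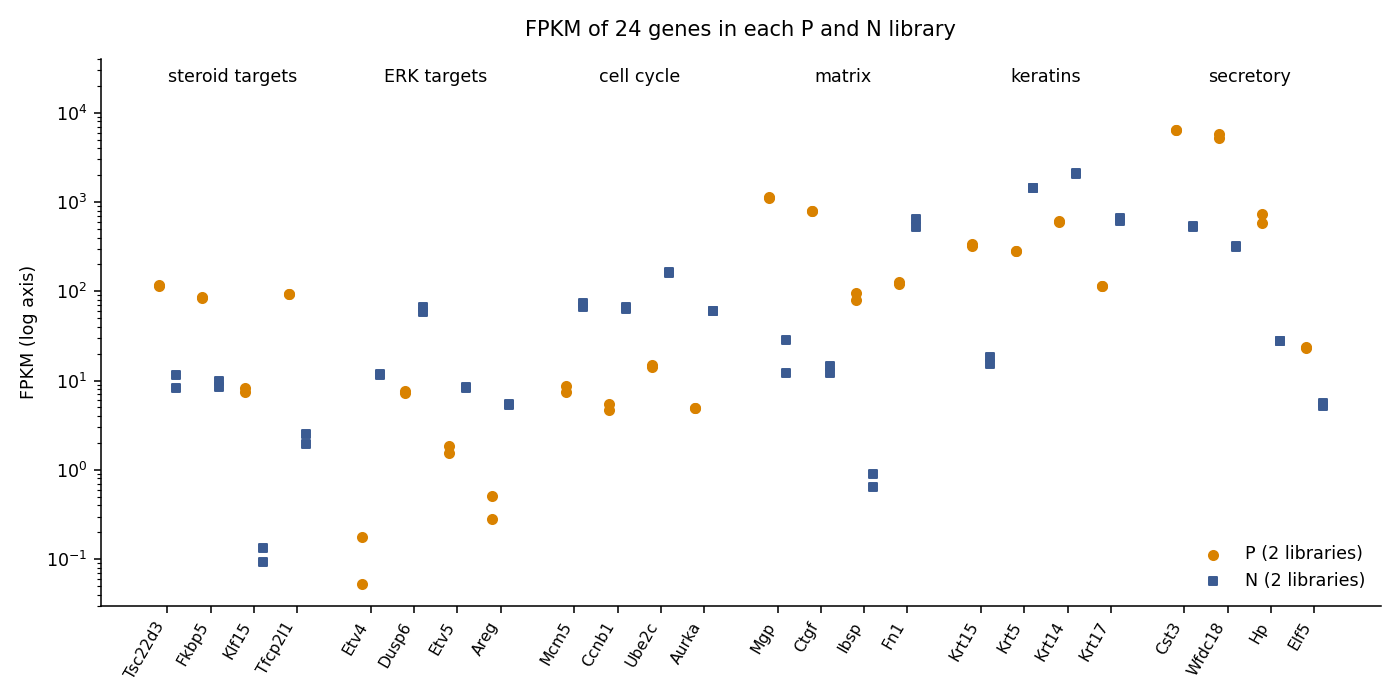
FPKM of 24 genes (log axis) in each library, with the 2 P libraries as orange circles left of the 2 N libraries as blue squares, grouped into steroid (GC) targets, ERK targets, cell cycle, matrix, keratins and secretory genes. The points of a group lie close together beside the distance between groups, apart from Etv4, Areg and Mgp at their lower level.

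Genes that serve proliferation fell beyond the cycle itself. In nucleotide synthesis 16 of 34 genes fell (47.1%, beside 5.93% of all genes) and 0 rose, with a median of −0.85. At an unadjusted limma p under 0.05, 1 was higher in P. Of the 16, 6 are also on the replication list, among them Tk1, thymidine kinase, with 18.6 and 18.4 FPKM in P, against 121 and 109.8 FPKM in N. Nme1, a nucleoside diphosphate kinase, had 58 and 58.5 FPKM in P, against 227 and 215 FPKM in N (log2 fold change −1.91, SE 0.10, adjusted p = 2.95e-05). Paics, an enzyme of purine synthesis, had 122 and 118 FPKM in P, against 195 and 192 FPKM in N (log2 fold change −0.69) and was not called. Ribosome biogenesis shifted as a whole but by less than 2-fold, with a median of −0.49 over 50 genes, each of them lower in P. Of the 50, 5 fell (10%, beside 5.93% of all genes). Fbl, the methyltransferase fibrillarin of the nucleolus, had 43.3 and 44.2 FPKM in P, against 117 and 124 FPKM in N (log2 fold change −1.44, SE 0.09, adjusted p = 5.62e-05). Nucleophosmin (Npm1) had 304 and 289.97 FPKM in P, against 617 and 648 FPKM in N. Of 78 ribosomal protein genes 77 were lower in P and 3 fell (3.85%, beside 5.93% of all genes), namely Rps2, Rpsa and Rpl41. Reads of the many ribosomal protein pseudogenes are a source of uncertainty. Rps2 had 1473 and 1472 FPKM in P, against 3727 and 4049 FPKM in N (log2 fold change −1.40, SE 0.08, adjusted p = 3.19e-05). Oxidative phosphorylation shifted down by a small amount, with a median of −0.22 over 85 genes, of which 67 were lower and 18 higher in P. Of the 85, 2 rose (2.35%) and 1 fell (1.18%), beside 7.17% and 5.93% of all genes.

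Replication-dependent histone genes split. Of 26 measured, 11 fell (42.3%) and 3 rose (11.5%), beside 5.93% and 7.17% of all genes. Near-identical copies and the selection for poly(A) make single genes uncertain. Hist1h2ai had 1.77 and 1.36 FPKM in P, against 18.6 and 17.9 FPKM in N, and Hist1h3h had 0.256 and 0.167 FPKM in P, against 7.73 and 6.44 FPKM in N. By contrast Hist1h2bc rose, with 18.8 and 16.6 FPKM in P, against 1.11 and 2.54 FPKM in N (log2 fold change 2.77, SE 0.23, adjusted p = 0.000158), and so did Hist3h2a, with 20.3 and 23.5 FPKM in P, against 6.92 and 7.13 FPKM in N. The third, Hist1h4i, had 5.69 and 6.05 FPKM in P, against 1.28 and 3.79 FPKM in N, and lost its call without N replicate 1 (log2 fold change 0.52), P replicate 1 (adjusted p = 0.106) or P replicate 2 (adjusted p = 0.125). Without 1 of the ESC or PRL libraries its adjusted p was 0.0511 to 0.0599.

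Genes of growth arrest and FOXO targets rose in part. Of 32 measured, 7 rose (21.9%, beside 7.17% of all genes) and 0 fell (beside 5.93%), with a median of 0.44. Without any 1 of the 4 libraries 6 genes rose. At an unadjusted limma p under 0.05, 4 were lower in P. Gas6, a growth arrest gene that encodes a ligand of TAM receptors, had 287 and 289 FPKM in P, against 55.8 and 55.7 FPKM in N (log2 fold change 2.35, SE 0.07, adjusted p = 5.73e-06). Txnip, an inhibitor of glucose uptake, had 144 and 148 FPKM in P, against 43.5 and 49.8 FPKM in N. Foxo3 itself had 18.4 and 17.8 FPKM in P, against 6.85 and 6.14 FPKM in N, and Pik3ip1, an inhibitor of phosphoinositide 3-kinase, had 21 and 21.6 FPKM in P, against 7.78 and 7.71 FPKM in N. These 4 genes rose, while the cyclin-dependent kinase inhibitor Cdkn2a had 75.5 and 76.4 FPKM in P, against 106 and 109.6 FPKM in N (log2 fold change −0.50) and was not called.

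Bone and cartilage matrix genes had the highest positive median of the 30 lists, smaller in size than the negative medians of mitosis and DNA replication. Of 31 measured, 20 rose (64.5%, beside 7.17% of all genes) and 0 fell (beside 5.93%), with a median of 1.502. Without any 1 of the 4 libraries 20 rose as well. At an unadjusted limma p under 0.05, 2 were lower in P. Mgp, matrix Gla protein, which keeps soft tissue from calcifying, lies on chromosome 6 from 136872435 to 136875823 and had 1150 and 1107 FPKM in P, against 12.1 and 28.5 FPKM in N (log2 fold change 5.84, SE 0.33, adjusted p = 3.82e-05). Its N libraries differed from each other by more than 2-fold, and both lay far below P. Ibsp, bone sialoprotein, had 96.2 and 79.8 FPKM in P, against 0.899 and 0.648 FPKM in N (log2 fold change 5.65, SE 0.17, adjusted p = 4.94e-06). Ogn, the small leucine-rich proteoglycan osteoglycin, had 38.6 and 36.9 FPKM in P, against 0.101 and 0.103 FPKM in N, and its relative osteomodulin (Omd) had 26.6 and 23.7 FPKM in P, against 0.367 and 0.474 FPKM in N. Hapln1, which links hyaluronan to aggrecan, had 49 and 46.9 FPKM in P, against 0.823 and 0.967 FPKM in N (log2 fold change 4.69, SE 0.10, adjusted p = 1.63e-06). Cytl1, a cytokine of chondrocytes, had 26.9 and 26.1 FPKM in P, against 0.572 and 0.897 FPKM in N. In the 5 genes from Ibsp to Cytl1, N stood below 1 FPKM in every library, so that they count as measured through P alone. Another 15 genes of the list were not measured at this level and are outside its share and median. Osteopontin (Spp1), a phosphoprotein of bone and of milk, rose to 6627 and 5969 FPKM in P, against 879 and 869 FPKM in N. The cartilage collagen gene Col2a1 was already abundant in N and rose further, with 928 and 865 FPKM in P, against 368 and 334 FPKM in N (log2 fold change 1.35, SE 0.15, adjusted p = 0.000605). Aggrecan (Acan) had 183 and 181 FPKM in P, against 107 and 93.4 FPKM in N (log2 fold change 0.86), short of a call. Sox9, the transcription factor of chondrocytes that also marks mammary progenitors, had 349 and 358 FPKM in P, against 162 and 169 FPKM in N and was not called in the fit of all 8 libraries (log2 fold change 1.09, adjusted p = 0.132), whereas the 6 HC11 libraries alone gave an adjusted p of 7.23e-06. The 9 markers that define chondrocytes and osteoblasts summed to 1235 and 1152 FPKM in P, against 485 and 441 FPKM in N, with Col2a1, Ibsp and Alpl called up among 6 measured at 1 FPKM or more.

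Among other matrix genes, of 26 collagens and basement membrane genes 3 rose and 3 fell (11.5% each, beside 7.17% up and 5.93% down of all genes), and of 27 matrix proteases and inhibitors 2 rose (7.41%) and 8 fell (29.6%). Leaving out 1 of the 4 libraries left 1 or 2 up and 1 down in the first list and 4 down in the second. Fibronectin (Fn1) had 122 and 128 FPKM in P, against 641 and 525 FPKM in N (log2 fold change −2.21, SE 0.12, adjusted p = 3.18e-05) and kept its call. Sparc, a matrix protein that binds collagen and is on the bone and basal lists, had 2454 and 2378 FPKM in P, against 435 and 428 FPKM in N. Lamb3, a chain of the laminin that anchors epithelium, had 182 and 180.4 FPKM in P, against 89.1 and 83.7 FPKM in N. Col1a1 had 1.76 and 1.48 FPKM in P, against 16.7 and 16.8 FPKM in N, a fall whose adjusted p was 0.0338 with all 8 libraries and 2.17e-06 with the 6 HC11 libraries, and between 0.116 and 0.130 when a P or N library was left out. Timp1, an inhibitor of metalloproteases, had 19.1 and 21.2 FPKM in P, against 93 and 88.3 FPKM in N (log2 fold change −2.12, SE 0.11, adjusted p = 2.93e-05). Adamts1, a protease of proteoglycans, had 23.8 and 23.2 FPKM in P, against 100.03 and 96.9 FPKM in N (adjusted p = 0.0149, 1.38e-06 with the 6 HC11 libraries, and up to 0.0729 without 1 library). The ranges of P and N stayed apart in all of these.

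Targets of YAP and SRF follow cell shape and tension. Of 22 YAP targets 2 rose (9.09%) and 3 fell (13.6%), and of 32 genes of SRF and actin 1 rose (3.13%) and 4 fell (12.5%), beside 7.17% up and 5.93% down of all genes. Ctgf, connective tissue growth factor, rose to 791 and 790.1 FPKM in P, against 12.2 and 14.7 FPKM in N (log2 fold change 5.78, SE 0.22, adjusted p = 9.42e-06), while its close relative Cyr61 was lower, at 42.2 and 56.1 FPKM in P, against 203 and 219 FPKM in N (log2 fold change −2.09, adjusted p = 0.0216, 6.48e-05 with the 6 HC11 libraries, and up to 0.113 without 1 library). Tissue factor (F3) had 118 and 109.7 FPKM in P, against 21.8 and 22.7 FPKM in N. Tagln2, an actin-binding protein, had 80.2 and 86.2 FPKM in P, against 297 and 324 FPKM in N (log2 fold change −1.89, SE 0.10, adjusted p = 3.06e-05), and cofilin (Cfl1), which severs actin filaments, had 382 and 381 FPKM in P, against 851 and 865 FPKM in N. The actin gene Actg1 itself had 3310 and 3523 FPKM in P, against 4842 and 4738 FPKM in N (log2 fold change −0.49).

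Keratins of the basal layer diverged from each other. Of 23 basal genes 9 fell (39.1%) and 4 rose (17.4%), beside 5.93% and 7.17% of all genes, with a median of −0.24. Krt5 and its partner Krt14 define the basal layer of stratified and mammary epithelium, and Krt15 is a keratin of basal and progenitor cells that can also pair with Krt5. Krt5 had 279 and 285 FPKM in P, against 1452 and 1448 FPKM in N (log2 fold change −2.36, SE 0.06, adjusted p = 2.45e-06). Krt14 had 590.02 and 618 FPKM in P, against 2096 and 2058 FPKM in N (log2 fold change −1.78, SE 0.07, adjusted p = 1e-05). Krt15, on chromosome 11 from 100131759 to 100135949, had 341 and 322 FPKM in P, against 15.4 and 18.2 FPKM in N (log2 fold change 4.23, SE 0.10, adjusted p = 1.81e-06). On the FPKM scale Krt15 thus stood above Krt5 in both P libraries and far below it in both N libraries. Krt17, a keratin of stressed and basal epithelium, had 115 and 116 FPKM in P, against 657 and 615 FPKM in N, and Krt16 had 4.55 and 4.36 FPKM in P, against 34.9 and 35.9 FPKM in N. Krt42, a keratin outside the list, fell too, with 1.48 and 1.73 FPKM in P, against 29 and 27.7 FPKM in N. Stratifin (Sfn), an epithelial 14-3-3 protein, had 15.2 and 15.7 FPKM in P, against 62.1 and 68.4 FPKM in N. The transcription factor of the basal layer, Trp63, had 18 and 16.9 FPKM in P, against 15.6 and 15.6 FPKM in N (log2 fold change 0.15, adjusted p = 0.195). Mylk and Snai2 also rose, and Snai2, a factor of the basal state, lost its call without any 1 of the 4 libraries (adjusted p up to 0.132, and 5.62e-05 with the 6 HC11 libraries).

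Of 25 luminal genes 7 rose (28%) and 3 fell (12%), beside 7.17% and 5.93% of all genes, with a median of 0.43. Ehf, an ETS factor of secretory epithelium, had 104 and 99.5 FPKM in P, against 6.24 and 7.02 FPKM in N (log2 fold change 3.76, SE 0.08, adjusted p = 1.63e-06). Elf5, the ETS factor that drives alveolar differentiation, had 23.8 and 23.1 FPKM in P, against 5.17 and 5.64 FPKM in N (log2 fold change 1.93, SE 0.08, adjusted p = 1.68e-05). Kit, the receptor of luminal progenitors, had 40.2 and 40.5 FPKM in P, against 5.05 and 5.14 FPKM in N. Cited4, a coactivator that binds CBP and p300, had 741 and 714 FPKM in P, against 119 and 127 FPKM in N (log2 fold change 2.55, SE 0.16, adjusted p = 5.11e-05). Cldn4, a tight junction claudin, had 76.4 and 84.5 FPKM in P, against 37.3 and 35.1 FPKM in N. The genes that fell were Areg, the Notch target Hey1, with 26.9 and 26 FPKM in P, against 82.4 and 74.1 FPKM in N, and Ly6a (Sca-1), with 57.7 and 68.2 FPKM in P, against 202 and 246 FPKM in N, whose call was lost without N replicate 2 or P replicate 1 (adjusted p = 0.0583 and 0.0606). Keratins 8 and 18 of luminal cells were not called: Krt8 had 180.4 and 185 FPKM in P, against 239 and 228 FPKM in N, and Krt18 had 129 and 132 FPKM in P, against 77.2 and 73.3 FPKM in N. Their log2 fold changes have opposite signs (−0.35 and 0.78), and adjusted p was 0.217 and 0.0165. With the 6 HC11 libraries adjusted p was 0.00115 for Krt8 and 2.55e-05 for Krt18.

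Secretory genes rose before PRL was added. Of 24 measured genes of milk proteins and secretory differentiation 15 rose (62.5%, beside 7.17% of all genes) and 0 fell (beside 5.93%). The median was 1.48, and 15 rose as well without any 1 of the 4 libraries. At an unadjusted limma p under 0.05, 1 was lower in P. Another 14 genes of the list, among them the caseins Csn2, Csn1s1 and Csn3, did not reach 1 FPKM in 2 of the 4 libraries. They are outside this share and median. Wfdc18, a whey acidic protein family member of mammary epithelium, had 5195 and 5751 FPKM in P, against 314 and 318 FPKM in N (log2 fold change 4.11, SE 0.08, adjusted p = 1.63e-06). Lactoferrin (Ltf) had 12.6 and 17 FPKM in P, against 0.109 and 0.143 FPKM in N, so that it counts as measured through P alone. Muc15, a mucin of the milk fat globule, had 32.9 and 33.3 FPKM in P, against 1.52 and 1.72 FPKM in N. Xdh, xanthine dehydrogenase, which binds the milk fat globule, had 29.5 and 29.4 FPKM in P, against 5.41 and 5.2 FPKM in N (log2 fold change 2.27, SE 0.39, adjusted p = 0.0039). Mfge8, another protein of the globule, had 186 and 192 FPKM in P, against 77.8 and 72.3 FPKM in N. Stat5a, which carries the PRL signal, had 19.7 and 19.8 FPKM in P, against 9.81 and 10.3 FPKM in N (log2 fold change 0.91, adjusted p = 0.00608), just short of a call, and Stat5b had 11.5 and 11.2 FPKM in P, against 8.81 and 7.73 FPKM in N. Plin2, the coat protein of lipid droplets, stood at 114 and 115 FPKM in P, against 115 and 110.4 FPKM in N, a log2 fold change of 0.03.

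Of 50 measured lysosomal genes 5 rose (10%, beside 7.17% of all genes) and 0 fell, and 40 were higher in P at any p (6163 of all 11653 genes), with a median of 0.50, and 3 were lower at an unadjusted p under 0.05. Ctsd, cathepsin D, had 5275 and 5174 FPKM in P, against 996 and 972 FPKM in N (log2 fold change 2.41, SE 0.07, adjusted p = 3.75e-06). Atp6v1a, a subunit of the proton pump that acidifies lysosomes, had 203 and 206 FPKM in P, against 50.1 and 50.9 FPKM in N, and Hexa, a hexosaminidase, had 152 and 149.6 FPKM in P, against 59.5 and 57.9 FPKM in N. Psap, the precursor of the saposins, had 667 and 684 FPKM in P, against 368 and 365 FPKM in N (log2 fold change 0.88) and was not called, and the tetraspanin gene Cd63 had 337 and 355 FPKM in P, against 334 and 343 FPKM in N.

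Genes of cholesterol synthesis fell in part. Of 24 measured 12 fell (50%, beside 5.93% of all genes) and 0 rose, with a median of −1.02. At an unadjusted limma p under 0.05, 1 was higher in P. Fdps, farnesyl diphosphate synthase, had 23.2 and 23 FPKM in P, against 89.6 and 90.9 FPKM in N (log2 fold change −1.92, SE 0.11, adjusted p = 4.1e-05), and Insig1, a feedback regulator of SREBP, had 4.3 and 3.94 FPKM in P, against 16.4 and 20.4 FPKM in N. Srebf2, the transcription factor of the pathway, had 31.1 and 31.1 FPKM in P, against 67.2 and 66 FPKM in N (log2 fold change −1.07). Of 31 genes of fatty acid and triglyceride synthesis 4 rose (12.9%) and 3 fell (9.68%), beside 7.17% and 5.93% of all genes. Scd2, a desaturase, had 144 and 144 FPKM in P, against 475 and 474 FPKM in N (log2 fold change −1.71, SE 0.09, adjusted p = 2.71e-05), and Fabp5 had 278 and 297 FPKM in P, against 877 and 903 FPKM in N, while Fabp4, a fatty acid carrier that is also an adipocyte marker, had 23.1 and 23 FPKM in P, against 3.28 and 3.47 FPKM in N. Adipoq, which defines adipocytes, was at 0 in all 4 libraries. Srebf1 had 211 and 200.3 FPKM in P, against 123 and 123 FPKM in N and was not called.

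**Figure D4:**
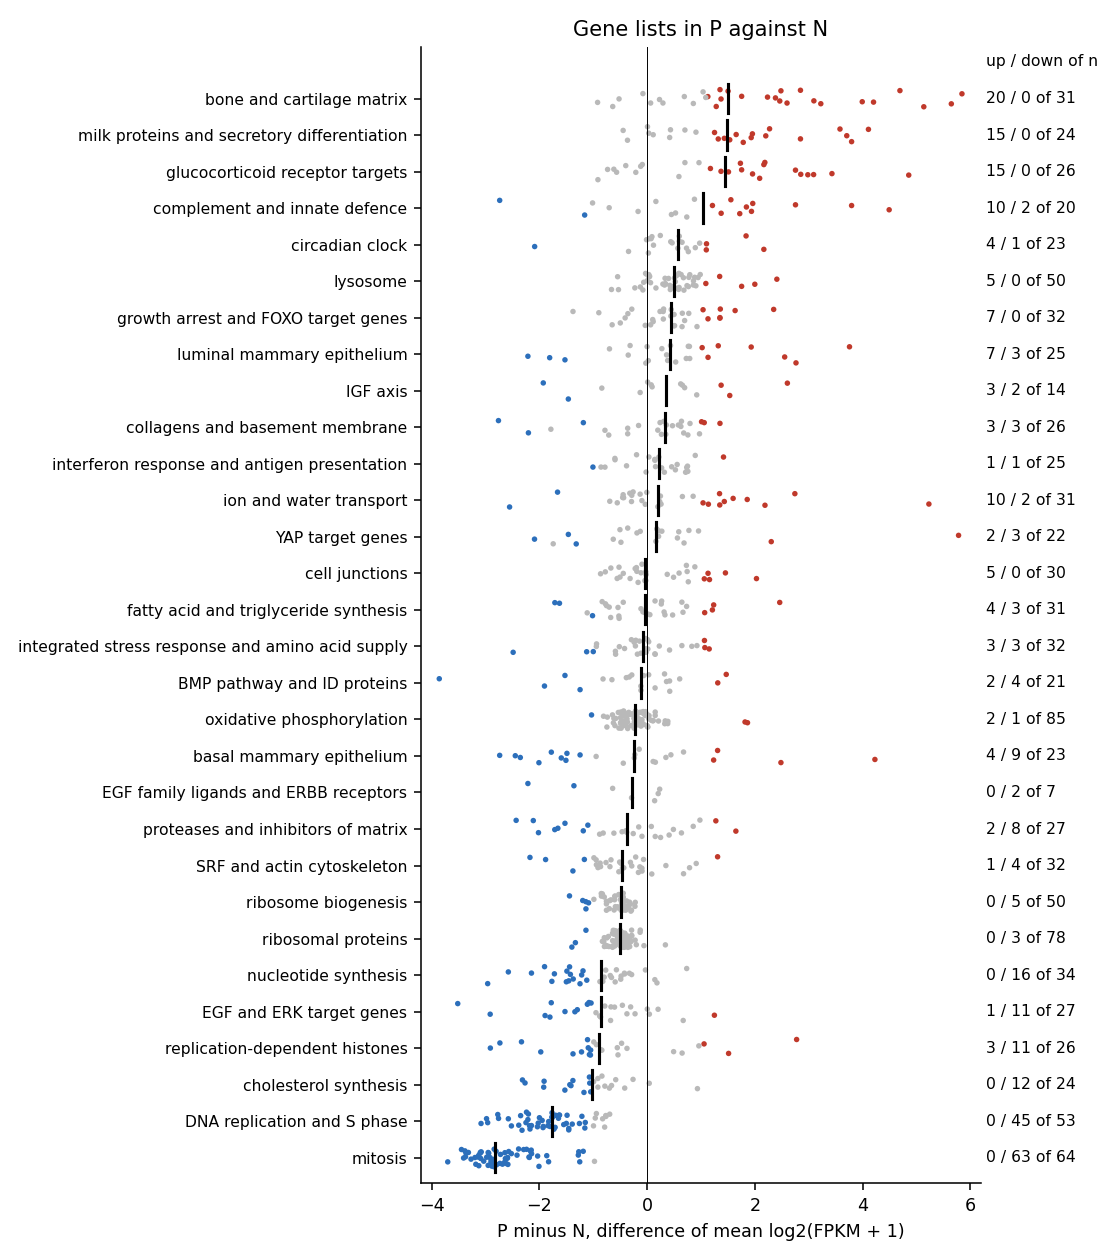
Each point is the log2 fold change (P minus N, on log2(FPKM + 1)) of a measured gene of 1 of 30 lists, red where called up, blue where called down and grey otherwise, and the black bar is the median of the list. The counts at the right give genes called up and down of those measured, with mitosis (0 and 63 of 64) and DNA replication (0 and 45 of 53) at the bottom and bone and cartilage matrix (20 and 0 of 31) at the top.

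Genes of innate defence were among those that rose. Of 20 measured genes of complement and innate defence 10 rose (50%) and 2 fell (10%), with a median of 1.04, and 1 rose and 1 fell of 25 interferon and antigen presentation genes (4% each, beside 7.17% up and 5.93% down of all genes). Haptoglobin (Hp), an acute phase protein, had 579 and 727 FPKM in P, against 27.8 and 27.9 FPKM in N (log2 fold change 4.49, SE 0.11, adjusted p = 2.24e-06). Complement C3 had 62.8 and 73.5 FPKM in P, against 17.4 and 16.1 FPKM in N, the lipopolysaccharide-binding protein gene Lbp had 81.5 and 90.6 FPKM in P, against 20.1 and 23.5 FPKM in N and clusterin (Clu) had 108 and 121 FPKM in P, against 31.6 and 30.8 FPKM in N. Of the 10, Lcn2 is also on the GC target list and Ltf on the milk list. The cytokine Il6 fell, with 0.345 and 0.561 FPKM in P, against 8.79 and 8.56 FPKM in N (log2 fold change −2.74, SE 0.12, adjusted p = 1.71e-05). The other gene of the list that fell was the chemokine gene Cxcl5, with 2.19 and 2.58 FPKM in P, against 4.45 and 9.47 FPKM in N, whose call was lost without N replicate 2 (log2 fold change −0.69), P replicate 1 (adjusted p = 0.0866) or P replicate 2 (adjusted p = 0.058). The chemokine gene Cxcl1 had 5.4 and 6.81 FPKM in P, against 12.3 and 14.4 FPKM in N and was not called (log2 fold change −1.01, adjusted p = 0.11, and 0.000451 with the 6 HC11 libraries). The chemokine genes Ccl9 and Cxcl17 are outside the list and were named for the size of their rise. Ccl9 had 36.1 and 38.7 FPKM in P, against 0.499 and 0.523 FPKM in N, and Cxcl17 had 39.7 and 42.8 FPKM in P, against 0.564 and 0.287 FPKM in N. H2-T23, a class I molecule, had 108 and 112 FPKM in P, against 41.4 and 39.8 FPKM in N, while B2m had 108 and 115 FPKM in P, against 138 and 153 FPKM in N and was not called. Xaf1, the interferon-induced gene called down, lost its call without any 1 of the 4 libraries (adjusted p up to 0.112, and 0.000195 with the 6 HC11 libraries).

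Of 23 clock genes 4 rose (17.4%, beside 7.17% of all genes) and 1 fell (4.35%, beside 5.93%), with a median of 0.57. Per1, a repressor of the clock and a GC target, had 53.8 and 52.7 FPKM in P, against 11 and 11.2 FPKM in N (log2 fold change 2.17, SE 0.10, adjusted p = 2.27e-05). Bhlhe41, another repressor, had 31.2 and 30.7 FPKM in P, against 8.2 and 7.71 FPKM in N, and Tef, an activator of the PAR family, had 62.3 and 61.3 FPKM in P, against 28.8 and 27.7 FPKM in N. Timeless, which serves at the replication fork, fell, with 1.63 and 1.49 FPKM in P, against 10.02 and 9.77 FPKM in N. Nr1d1, which represses Bmal1, had 28.7 and 28.2 FPKM in P, against 27 and 25.4 FPKM in N (log2 fold change 0.12).

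Inhibitors of basic helix-loop-helix factors fell. On the log2(FPKM + 1) scale Id3 had the largest fall of all 11653 genes (as a ratio of means Etv4 and some others fell by more), with 16.7 and 12.8 FPKM in P, against 202 and 252 FPKM in N (log2 fold change −3.86, SE 0.26, adjusted p = 7.47e-05). Id1 had 45.4 and 39.4 FPKM in P, against 170.4 and 153 FPKM in N and Id4 had 30.8 and 30.9 FPKM in P, against 77 and 72.3 FPKM in N, and both fell, but Id2 had 137 and 124 FPKM in P, against 92.9 and 102 FPKM in N and was not called. The ID genes respond to BMP in many cells. Of the BMP list as a whole (21 genes) 2 rose (9.52%) and 4 fell (19.0%), beside 7.17% and 5.93% of all genes. The BMP and activin antagonist follistatin (Fst) had 76.4 and 76.2 FPKM in P, against 29.9 and 30.5 FPKM in N (log2 fold change 1.31, SE 0.16, adjusted p = 0.000907), and Gdf5, a BMP family ligand of joints, had 1.87 and 2.02 FPKM in P, against 0.0185 and 0.113 FPKM in N.

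Of 31 genes of ion and water transport 10 rose (32.3%, beside 7.17% of all genes) and 2 fell (6.45%, beside 5.93%). Atp1b1, the β subunit of the sodium pump, had 192 and 196 FPKM in P, against 4.07 and 4.32 FPKM in N (log2 fold change 5.23, SE 0.06, adjusted p = 4.38e-07), the lowest adjusted p of the genes named here. Its relative Atp1b3 had 88.1 and 87.2 FPKM in P, against 104 and 107 FPKM in N (log2 fold change −0.26). Slc4a4, a sodium bicarbonate cotransporter, had 13.8 and 13.2 FPKM in P, against 1.12 and 1.22 FPKM in N, and the chloride channel Ano1 had 8.65 and 8.47 FPKM in P, against 1.06 and 1.14 FPKM in N. Fxyd5, a regulator of the pump, fell, with 5.14 and 5.3 FPKM in P, against 35.6 and 35.6 FPKM in N, and so did the water channel Aqp3, with 0.378 and 0.507 FPKM in P, against 3.6 and 3.54 FPKM in N. Of 14 genes of the insulin-like growth factor (IGF) axis 3 rose (21.4%) and 2 fell (14.3%), beside 7.17% and 5.93% of all genes. Igfbp5 rose to 1894 and 1815 FPKM in P, against 658 and 622 FPKM in N (log2 fold change 1.53, SE 0.07, adjusted p = 1.91e-05). Igfbp2 fell, with 37.4 and 35.3 FPKM in P, against 149 and 133 FPKM in N, and Igfbp3 fell, with 49.2 and 50.2 FPKM in P, against 143 and 135 FPKM in N. Igf2 was close to silent in N, with 6.96 and 6.88 FPKM in P, against 0.162 and 0.464 FPKM in N. Of 30 cell junction genes 5 rose (16.7%, beside 7.17% of all genes) and 0 fell. At an unadjusted limma p under 0.05, 9 of the 30 were lower in P. Tjp3, a scaffold of tight junctions, had 6.71 and 7.64 FPKM in P, against 0.859 and 1.15 FPKM in N.

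A small set of genes was switched on. At 1 FPKM or more in both P libraries and under 0.1 FPKM in both N libraries stood 39 genes, of which 11 were listed at 0 in both N libraries, and in the other direction 3. Ucma, a cartilage matrix protein with Gla residues like Mgp, had 11.1 and 12 FPKM in P, against 0 and 0 FPKM in N, so that N was listed at 0. Capn6, a calpain without protease activity, had 14.8 and 13.5 FPKM in P, against 0.0844 and 0.0614 FPKM in N. Decorin (Dcn), a proteoglycan that binds collagen, had 8.88 and 7.18 FPKM in P, against 0.0411 and 0.0629 FPKM in N. Frzb and Chrdl2 encode secreted antagonists of WNT and BMP. Frzb had 4.88 and 5.32 FPKM in P, against 0.0587 and 0.0449 FPKM in N, and Chrdl2 had 5.73 and 5.43 FPKM in P, against 0.0996 and 0.0507 FPKM in N. Adcy8, an adenylyl cyclase, had 2.64 and 2.44 FPKM in P, against 0 and 0 FPKM in N. Cyp2f2, a cytochrome P450 of the airway, was just above that limit in N and reached a higher level, with 28.1 and 28.9 FPKM in P, against 0.0942 and 0.12 FPKM in N (log2 fold change 4.74, SE 0.10, adjusted p = 1.76e-06). The 3 genes switched off were Hist1h2bm, Gm6455 and Gm19589, the highest at 2.12 FPKM in N (Gm6455, N replicate 2).

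MicroRNA hairpin genes rose more often than genes of proteins, a pattern chosen after the values were seen. Of 134 hairpin genes 45 rose (33.6%) and 2 fell, and of 289 long noncoding RNA genes 44 rose (15.2%) and 9 fell (3.11%), beside 736 (6.66%) and 673 (6.09%) of 11048 protein-coding genes. Small nucleolar RNA genes did not share this, with 4 up and 2 down of 76. The libraries hold long poly(A) RNA, so that reads on a hairpin come from the primary transcript or an unspliced host and not from the mature microRNA. Hairpin genes have a median length of 75 bases and a median of 5.75 fragments per library, and of the 45 that rose 16 had under 10 fragments in every library and 18 kept their call without each of the 4 libraries. Malat1 and Neat1, RNAs that stay in the nucleus, moved in the same direction: Malat1 had 378 and 335 FPKM in P, against 77.2 and 70.2 FPKM in N (log2 fold change 2.26, SE 0.18, adjusted p = 0.000143), and Neat1 had 499 and 479 FPKM in P, against 217 and 200.2 FPKM in N. The part of nuclear RNA in the rise of hairpins was not tested.

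**Figure D5:**
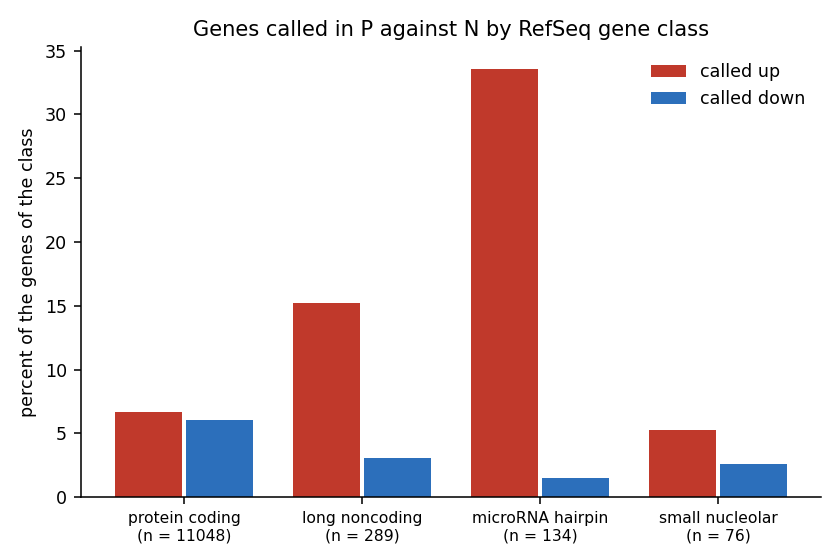
The bars give the percent of genes called up (red) and called down (blue) in each RefSeq gene class, with the number of genes under the axis. MicroRNA hairpin genes stand at 33.6% up and 1.49% down, and protein-coding genes at 6.66% and 6.09%.

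Hairpins of the let-7 and miR-200 families were among those that rose. let-7 restrains proliferation and MYC in many cells, and miR-200 maintains epithelial identity by acting on ZEB factors. The mature sequences encoded by the called members, from RefSeq on GRCm38.p6, are shown with bases 2 to 8, the seed that pairs with targets, in capitals, because members that share a seed can share targets.
mmu-let-7i-5p: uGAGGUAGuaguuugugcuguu
mmu-let-7c-5p: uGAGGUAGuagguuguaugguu
mmu-let-7d-5p: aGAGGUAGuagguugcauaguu
mmu-let-7f-5p: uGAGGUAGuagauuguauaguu
mmu-miR-200b-3p: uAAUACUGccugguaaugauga
mmu-miR-429-3p: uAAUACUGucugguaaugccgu
mmu-miR-200a-3p: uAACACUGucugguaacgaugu
The 4 let-7 sequences share the seed GAGGUAG. miR-200b and miR-429 share AAUACUG, and miR-200a has AACACUG. Mirlet7i, on chromosome 10, had 38 and 23 fragments in P, against 1 and 2 in N (log2 fold change 3.14, SE 0.25, adjusted p = 0.000147). Mirlet7c-1, on chromosome 16, had 42 and 43 fragments in P, against 9 and 5 in N (log2 fold change 2.25, SE 0.21, adjusted p = 0.000286). On chromosome 13, Mirlet7d had 40 and 60 fragments in P, against 7 and 9 in N, but it lost its call without any 1 of the 4 libraries (adjusted p up to 0.145, and 0.00204 with the 6 HC11 libraries). Its neighbour Mirlet7f-1 had 4 and 10 fragments in P, against 0 and 2 in N and lost its call without 2 of the 4 (adjusted p up to 0.185, and 0.0745 with the 6 HC11 libraries). The miR-200 genes lie together on chromosome 4, where Mir200b had 14 and 11 fragments in P, against 0 and 0 in N, Mir200a had 17 and 14 fragments in P, against 2 and 0 in N and Mir429 had 26 and 29 fragments in P, against 8 and 3 in N. All 3 kept their call without each library, though on fewer than 30 fragments each. Mir140 was the most abundant hairpin, with 1799 and 1790 FPKM in P, against 684 and 538 FPKM in N, and lies in the gene of the ubiquitin ligase Wwp2, which had 1235 and 1191 FPKM in P, against 709 and 672 FPKM in N (log2 fold change 0.81). The call of Mir140 (log2 fold change 1.56, adjusted p = 0.0294) was lost without any 1 of the 4 libraries (adjusted p up to 0.135, and 0.000243 with the 6 HC11 libraries).

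PRL cells received PRL after priming, with GC, insulin and 5% FBS still in the medium. PRL and the longer time in culture both set them apart from P. Their levels of the genes above can be set beside N and P without a test (mean ± SD, n = 2 each). Mgp averaged 20.3 ± 11.6 FPKM in N, 1128 ± 30.4 FPKM in P and 2050 ± 50.3 FPKM in PRL cells. Ctgf averaged 13.4 ± 1.73 FPKM in N, 791 ± 0.934 FPKM in P and 1609 ± 62.9 FPKM in PRL cells, and Fkbp5 9.18 ± 1.09 FPKM in N, 85.5 ± 0.775 FPKM in P and 239 ± 14.4 FPKM in PRL cells, so that these 3 genes stood highest in PRL cells. Cst3 had about the same level in P and PRL cells, with 532 ± 1.55 FPKM in N, 6375 ± 12.4 FPKM in P and 6397 ± 88.1 FPKM in PRL cells. Krt15 averaged 16.8 ± 2.03 FPKM in N, 331 ± 12.9 FPKM in P and 179 ± 1.13 FPKM in PRL cells, so that its level in PRL cells lay between those of N and P, as did that of Scrg1, with 7.94 ± 0.814 FPKM in N, 239 ± 18.6 FPKM in P and 157 ± 5.88 FPKM in PRL cells. Krt5 averaged 1450 ± 3.13 FPKM in N, 282 ± 4.28 FPKM in P and 113 ± 4.8 FPKM in PRL cells, and Ube2c 162 ± 3.5 FPKM in N, 14.6 ± 0.525 FPKM in P and 3.0 ± 0.769 FPKM in PRL cells, both lowest in PRL cells. Myc averaged 26.4 ± 0.0128 FPKM in N, 11.7 ± 0.427 FPKM in P and 27.5 ± 1.77 FPKM in PRL cells, and its level in PRL cells was near that of N. Postn averaged 332 ± 21.3 FPKM in N, 1125 ± 71.4 FPKM in P and 270.1 ± 23.1 FPKM in PRL cells, with PRL cells below N.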

How the data were processed

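Reads were trimmed with Trimmomatic, aligned by the authors with TopHat2 to the mouse genome (GRCm38, mm10) and counted per gene with featureCounts; the annotation and the strand setting are not given in the sources used here, so that overlapping and antisense genes cannot be told apart. The authors deposited FPKM per gene and library, that is fragments per kilobase of exon scaled to library size, which carry their correction for gene length and library size. The depth was recovered from the steps between the FPKM of genes with few fragments. A length was then searched for each gene, and in 16933 of 16933 genes whole fragments within 0.05 were reached. As the length was free, this is a weak check of the depth. No count model was run. The 4 deposited comparison tables, with 8 columns of group mean counts and the fold changes and p-values of DESeq2, were not used.

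The 4 groups of 2 libraries were fitted together on log2(FPKM + 1) with limma 3.58.1 (R 4.3.3; trended, robust empirical Bayes with statmod 1.5.0) over 13210 genes at 1 FPKM or more in at least 2 of the 8 libraries, with Benjamini-Hochberg adjustment over all of these. The test was two-sided, with the libraries of a group as replicates. The study's own threshold of adjusted p under 0.001 was among 22 alternatives.

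Named were the 4 markers, the 15 largest rises and falls at 10 FPKM or more, the 10 largest gains and losses in FPKM, up to 6 genes called in each direction and 3 not called from each of 30 gene lists, the genes that the study names for priming, and up to 10 genes switched on or off (1 FPKM against under 0.1 FPKM). The genes of RefSeq classes, the microRNAs, and Epcam, Krt8, Krt18, Trp63, Sgk1, Glul, Egfr, Top2a, Pcna, Foxm1, E2f8, Col2a1, Srebf2, Malat1, Neat1 and Wwp2 were added after their values were seen. A few genes that these rules name are not reported here. The comparison, its markers and the gene lists were chosen with earlier results of these data known. Promoters and microRNAs came from RefSeq tables on GRCm38.p6, matched by symbol, and 11609 of the 11653 genes had a RefSeq position. Python 3.11.15, pandas 2.3.3, numpy 2.4.6 and matplotlib 3.10.9 were used.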

Additional observations from a re-analysis of the deposited data

How the results depend on the processing

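Under the 22 alternatives the genes called up numbered between 598 and 1087 and those called down between 541 and 835. The fewest came with the threshold of adjusted p under 0.001 (598 up, 541 down) and the most with a pseudocount of 0.1 (1087 up, 835 down). Without 1 of the P or N libraries, between 766 and 861 rose and between 641 and 658 fell, and 665 of the 835 and 567 of the 691 kept their call in all 4 of these fits. Median ratio scaling gave 782 up and 721 down, and quantile normalization 760 up and 722 down. Of 305 named genes, 206 were called, 165 of them under every alternative that tested them, and 0 changed direction. The threshold of 0.001 ended 38 of the 206 calls, that of 0.01 ended 14, and leaving out a P or N library ended 15 to 17.

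The labels number the replicates of P and N alike and do not say whether the numbers pair the libraries. Deviations from the group mean correlated at r = −0.039 between the replicates numbered 1 (across 11653 genes). With 2 libraries a group this shows no strong shared deviation, but it cannot exclude a shared culture or day. A fit with the replicate block called 834 genes up and 689 down, of which 831 and 689 were also called without it, and it changed no call among the 305 named genes. With 2 libraries a group, no value could be examined for outlying libraries, and changes in genes of few fragments, such as microRNA hairpins, rest on the least depth.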
